A study of Rattus norvegicus with 12 samples.

Results

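The WNK kinases, their target kinases SPAK and OSR1, and the cation-chloride cotransporters that these act on were described at the level of mRNA in the rat PAC1 line, smooth muscle cells that derive from the pulmonary artery. The 9 genes are Wnk1, Wnk2, Wnk3, Wnk4, Stk39 (SPAK), Oxsr1 (OSR1), Slc12a2 (NKCC1), Slc12a4 (KCC1) and Slc12a7 (KCC4), out of 33294 genes in the count table. They were chosen by function, but with values of these same libraries known, since the low Wnk2 level in RBPMS KD1 had been seen before the set was drawn up. Their own values are therefore a description, given with fold changes and standard errors. No p-value is printed for them, and where it is said that one of them passed or missed a threshold, this describes the value and is no test of it.

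The study made 12 poly(A) RNA-seq libraries in 4 groups of 3, all from the PAC1 line and all transfected with siRNA. D1 is the more differentiated culture, PAC1-D, with control siRNA. P is the more proliferative culture, PAC1-P, with control siRNA. RBPMS KD1 is PAC1-D with siRNA against the RNA-binding protein RBPMS, and MBNL KD is PAC1-D with siRNAs against MBNL1 and MBNL2 together, although the titles of that group name MBNL1 alone. PAC1-D was split weekly and PAC1-P more often and more thinly, so passage regime and state cannot be told apart. Per the labels, 90 pmol of siRNA was given to 200000 cells per well, again after 24 h, and cells were taken 48 h later. The study's methods give other times and densities. All 4 groups come from this line alone. The labels do not say whether replicates were separate cultures, while the study's methods describe biological replicates for its experiments.

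The siRNAs define the groups, and their sense strands are shown for that reason, written 5′ to 3′ in lower case with no part marked.
C2 (control): aagguccggcucccccaaaug
RBPMS: ggcggcaaagccgagaaggcgaaca
MBNL1 THH2: cacggaauguaaauuugcauu
MBNL2: gaagaguaauugccugcuuuu

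WNK kinases are serine/threonine kinases that respond to intracellular chloride and to cell volume. They phosphorylate SPAK and OSR1, which in turn phosphorylate the cotransporters of the SLC12A family. That phosphorylation activates the sodium-potassium-chloride cotransporter NKCC1, which brings chloride into the cell, and inhibits the potassium-chloride cotransporters (KCCs), which carry it out. In smooth muscle, chloride held above equilibrium by NKCC1 allows chloride channels to depolarise the membrane. The counts measure mRNA summed over all isoforms of a gene, not protein or phosphorylation.

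Libraries held 80842635 to 90771289 counts, and a count of 3, taken as the floor of detection, corresponded to 0.0331 to 0.0371 CPM (the count relative to library size). Levels below are counts scaled by TMM factors to a common library of 88783600 counts ("scaled counts"), compared only within a gene, since transcript lengths were not used. Rbpms was at 25.0% of its D1 level in RBPMS KD1, and Mbnl1 and Mbnl2 were at 23.7% and 29.5% in MBNL KD. Rbpms was also at 6.30% in P and 83.3% in MBNL KD, and in P Mbnl2 was at 52.1% and Mbnl1 at 120% of D1. All 8 smooth muscle markers had counts in every group, with a summed level of 9819 to 10319 CPM in D1 and 7818 to 7935 in MBNL KD. That sum was 210 to 224 CPM in P, and the RBPMS KD1 libraries lay between at 4889 to 5066. The 5 endothelial markers summed to at most 6.75 CPM and the 3 leukocyte markers to at most 1.29 CPM, both highest in P, and Cdh5, Kdr and Epcam were at 0 in the 3 PAC1-D groups. The 4 epithelial markers summed to 80.2 to 83.2 CPM in P and 35.6 to 54.4 elsewhere, and the 3 fibroblast markers to 186 to 195 in P and 91.6 to 156 elsewhere. The sums follow their most abundant members, and single markers differ from them. Myh11 was 6603 ± 317 scaled counts in MBNL KD against 4570 ± 283 in D1, above D1 although the smooth muscle sum was below it. Of the fibroblast markers, Pdgfra was 389 ± 28.2 in P, 475 ± 16.7 in D1 and 893 ± 17.0 in RBPMS KD1, and Dcn was 1862 ± 83.6 in RBPMS KD1 against 1146 ± 73.0 in D1. Lum, the most abundant of them, was lower in RBPMS KD1, at 8642, 9206 and 9099 scaled counts against 11330, 12171 and 11575 in D1. These lists move with the groups, and their part in the values below was not tested. In bulk RNA, fewer cells that express a gene and less RNA per cell cannot be told apart.

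Wnk2 had the widest range of the 9 genes across the groups. The D1 libraries held 110, 120 and 102 counts of Wnk2, and the P libraries 0, 0 and 2. The RBPMS KD1 libraries held 28, 39 and 9 counts, and the MBNL KD libraries 298, 297 and 233. The groups were ordered P, RBPMS KD1, D1 and MBNL KD without overlap. In scaled counts, Wnk2 was 113 ± 9.93 in D1 (SD, n = 3 here and below), 0.632 ± 1.09 in P, 25.6 ± 15.4 in RBPMS KD1 and 281 ± 23.5 in MBNL KD. Relative to D1, these are 22.6% in RBPMS KD1 and 248% in MBNL KD. Every P library was under the floor of 3 counts, so Wnk2 counts as not detected in P.

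The low counts of Wnk2 limit how exactly these folds are known. Over summed counts, D1 was 4.44-fold above RBPMS KD1 (95% exact interval 3.45 to 5.77), and MBNL KD was 2.49-fold above D1 (2.19 to 2.83). The ratio of D1 to P rested on 332 against 2 counts and came to 180, with an interval of 49.4 to 1492. All these intervals cover counting error only. The edgeR fit gave log2 fold changes of −2.14 (SE 0.29) in RBPMS KD1, 1.32 (SE 0.13) in MBNL KD and −7.24 (SE 0.49) in P, the last depending on the prior count. Without P replicate 3, which held both P counts, the fitted value was −9.84 and Wnk2 had no count in P, and D1 was then at least 36.9-fold higher against the floor of 3 counts per library. With each library left out in turn, the RBPMS KD1 value lay between −2.60 and −1.74. Even counts were 2.06 to 2.36 times as frequent as odd ones up to a count of 20. Every library also held more counts than the number of reads that the paper gives after subsampling. The mates of a read pair may thus have been counted singly, and the 2 counts in P may be 1 pair. With every count halved, an alternative chosen after seeing this, the ratio of D1 to P stayed at 180 with an interval of 31.9 to 7150. D1 was then 4.56-fold above RBPMS KD1 (3.18 to 6.70), and MBNL KD 2.48-fold above D1 (2.07 to 2.99).

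**Figure D1:**
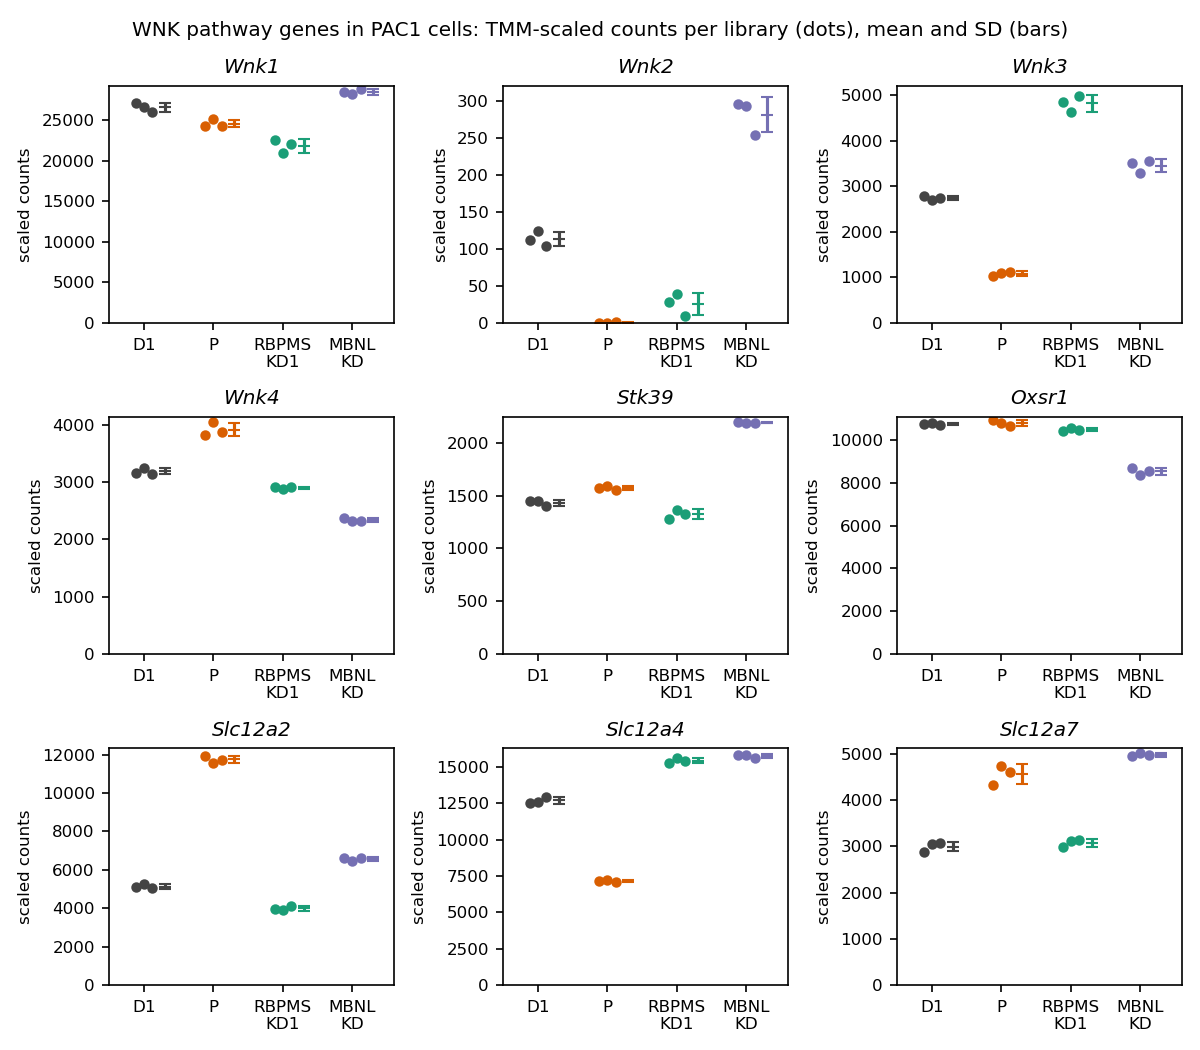
TMM-scaled counts of the 9 genes in each of the 12 libraries (y axes from 0, a separate scale for each gene), with dots for libraries and bars for the mean and SD of 3. Wnk2 lay between 0 and 1.90 in P and between 254 and 296 in MBNL KD, whereas the Oxsr1 libraries of D1 and P overlapped.

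Wnk3, which activates NKCC1 and inhibits KCCs in expression systems, went the other way from Wnk2 in RBPMS KD1. Its scaled counts were 2791, 2699 and 2749 in D1 and 1026, 1107 and 1117 in P. They were 4848, 4618 and 4978 in RBPMS KD1 and 3508, 3281 and 3551 in MBNL KD. The groups did not overlap, in the order P, D1, MBNL KD and RBPMS KD1. Against D1, the log2 fold change was −1.34 (SE 0.047) in P, 0.81 (SE 0.037) in RBPMS KD1 and 0.33 (SE 0.039) in MBNL KD. Wnk3 thus lay below D1 in the proliferative culture and above it in both knockdowns.

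Wnk1, the broadly expressed member of the family, varied little. Its libraries spanned 25969 to 27095 scaled counts in D1, 24249 to 25070 in P, 20893 to 22579 in RBPMS KD1 and 28155 to 28795 in MBNL KD. The groups were separate, but the distances were small, with log2 fold changes of −0.28 (SE 0.028) in RBPMS KD1 and 0.11 (SE 0.025) in MBNL KD. In P it was −0.11 (SE 0.025), and 0.044 on the authors' quantile-normalised values, so its direction there depended on the scaling.

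Wnk4, known for its control of salt transport in the distal nephron, was above D1 in P and below it in both knockdowns. It was 3184 ± 52.0 in D1, 3912 ± 118 in P, 2896 ± 23.5 in RBPMS KD1 and 2331 ± 33.1 in MBNL KD, with no overlap between groups. The log2 fold changes were 0.30 (SE 0.036) in P, −0.14 (SE 0.037) in RBPMS KD1 and −0.44 (SE 0.038) in MBNL KD. In MBNL KD, Wnk4 was therefore below D1 while the other 3 WNK genes were above it.

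The target kinases differed from each other mainly in MBNL KD. Stk39, which encodes SPAK, was 1432 ± 28.2 in D1, 1568 ± 19.8 in P, 1323 ± 46.1 in RBPMS KD1 and 2191 ± 5.44 in MBNL KD. Its log2 fold change was 0.62 (SE 0.046) in MBNL KD, 0.13 (SE 0.049) in P and −0.11 (SE 0.052) in RBPMS KD1, where it did not pass the adjusted p threshold of 0.05. Oxsr1, which encodes OSR1, was 10739 ± 51.2 in D1, 10792 ± 150 in P, 10485 ± 63.2 in RBPMS KD1 and 8529 ± 158 in MBNL KD. It was lower in MBNL KD, by −0.33 (SE 0.024) on the log2 scale, and the libraries of D1 and P overlapped (0.0061, SE 0.026). In RBPMS KD1 it did not pass the threshold at −0.033 (SE 0.026), and its sign turned to 0.030 on the authors' quantile-normalised values. Stk39 and Oxsr1 thus stood on opposite sides of D1 in MBNL KD.

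The 3 cotransporter genes each had a different order of groups. Slc12a2, which encodes the chloride importer NKCC1, was 5093, 5248 and 5032 in the D1 libraries and 11937, 11552 and 11740 in P. It was 3945, 3907 and 4111 in RBPMS KD1 and 6622, 6437 and 6616 in MBNL KD. The groups were ordered RBPMS KD1, D1, MBNL KD and P without overlap. The log2 fold change was 1.20 (SE 0.028) in P, −0.36 (SE 0.034) in RBPMS KD1 and 0.36 (SE 0.029) in MBNL KD.

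Slc12a4, which encodes the widely expressed chloride exporter KCC1, differed from Slc12a2 most in P, where it was lowest and Slc12a2 highest. Its scaled counts were 12544, 12593 and 12965 in D1 and 7160, 7241 and 7120 in P. They were 15267, 15618 and 15401 in RBPMS KD1 and 15800, 15850 and 15640 in MBNL KD. D1 came next after P, and both knockdowns were above D1 and close to each other. The log2 fold change was −0.83 (SE 0.027) in P, 0.28 (SE 0.026) in RBPMS KD1 and 0.32 (SE 0.023) in MBNL KD.

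Slc12a7, which encodes the exporter KCC4, was above D1 in P and MBNL KD, as Slc12a2 was, but was not below D1 in RBPMS KD1. It was 2881, 3046 and 3071 in D1 and 4328, 4752 and 4617 in P. It was 2987, 3109 and 3143 in RBPMS KD1 and 4950, 5025 and 4976 in MBNL KD. P and MBNL KD lay above the other groups, and RBPMS KD1 overlapped D1. The log2 fold change was 0.61 (SE 0.038) in P, 0.74 (SE 0.034) in MBNL KD and 0.040 (SE 0.039) in RBPMS KD1.

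Since NKCC1 and the KCCs move chloride in opposite directions, the ratios of Slc12a2 to Slc12a4 and to Slc12a7 were taken within each library. This measure was chosen after the values were seen, and other KCC genes were not used. With the D1 mean set to 1, Slc12a2 over Slc12a4 was 4.06 ± 0.092 in P, 0.640 ± 0.021 in RBPMS KD1 and 1.03 ± 0.022 in MBNL KD. Slc12a2 over Slc12a7 was 1.51 ± 0.097 in P, 0.757 ± 0.020 in RBPMS KD1 and 0.770 ± 0.018 in MBNL KD. Both ratios were above every D1 library in P and below every D1 library in RBPMS KD1. In MBNL KD the ratio to Slc12a4 overlapped D1, and the ratio to Slc12a7 was below it.

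**Figure D2:**
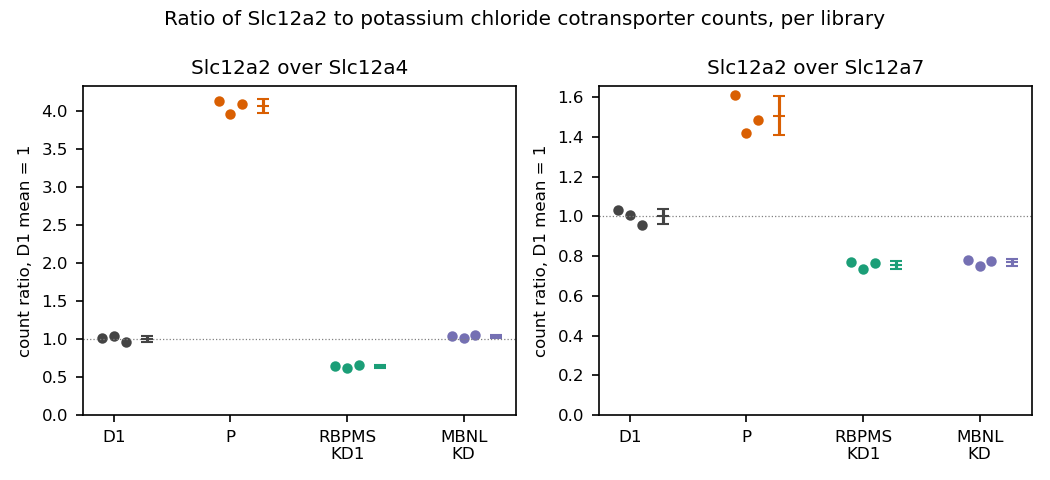
Count ratio of Slc12a2 to Slc12a4 (left) and to Slc12a7 (right) in each library, with the D1 mean set to 1 (y axes from 0), dots for libraries and bars for the mean and SD of 3. P lay at 3.95 to 4.13 on the left and 1.42 to 1.61 on the right, and RBPMS KD1 lay below 1 in both.

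The promoter sequences of 4 genes are shown because these genes span the patterns above, Wnk2 and Wnk3 in opposite directions in RBPMS KD1, and Slc12a2 and Slc12a4 in opposite directions in P. They are from RefSeq, assembly GRCr8, which is not the assembly the counts were made on, and run from 250 bases before to 50 after the annotated start, 5′ to 3′ on the gene's strand. Capitals mark GC boxes (GGGCGG on either strand). All 9 genes matched an entry, and Wnk3 matched a second one.
Wnk2 (chr17:15710407-15710706, plus strand): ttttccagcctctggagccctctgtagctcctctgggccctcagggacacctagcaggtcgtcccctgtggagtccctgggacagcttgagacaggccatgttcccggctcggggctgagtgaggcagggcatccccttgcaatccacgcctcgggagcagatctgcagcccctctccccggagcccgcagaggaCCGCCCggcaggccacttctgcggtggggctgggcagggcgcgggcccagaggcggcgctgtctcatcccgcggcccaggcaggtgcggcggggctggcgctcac
Wnk3 (chrX:23599055-23599354, plus strand): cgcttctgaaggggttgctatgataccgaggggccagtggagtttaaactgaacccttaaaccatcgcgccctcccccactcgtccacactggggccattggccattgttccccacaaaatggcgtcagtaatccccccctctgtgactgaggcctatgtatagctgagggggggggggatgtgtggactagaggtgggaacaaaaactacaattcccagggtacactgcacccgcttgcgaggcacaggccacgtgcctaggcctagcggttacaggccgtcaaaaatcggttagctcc
Slc12a2 (chr18:53546083-53546382, plus strand): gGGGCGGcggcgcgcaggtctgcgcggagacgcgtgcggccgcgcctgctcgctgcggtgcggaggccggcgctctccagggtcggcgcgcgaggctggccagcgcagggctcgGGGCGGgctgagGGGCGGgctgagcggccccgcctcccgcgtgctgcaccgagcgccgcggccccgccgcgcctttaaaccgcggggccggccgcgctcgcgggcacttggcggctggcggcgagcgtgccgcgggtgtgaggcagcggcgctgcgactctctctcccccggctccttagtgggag
Slc12a4 (chr19:50770073-50770372, minus strand): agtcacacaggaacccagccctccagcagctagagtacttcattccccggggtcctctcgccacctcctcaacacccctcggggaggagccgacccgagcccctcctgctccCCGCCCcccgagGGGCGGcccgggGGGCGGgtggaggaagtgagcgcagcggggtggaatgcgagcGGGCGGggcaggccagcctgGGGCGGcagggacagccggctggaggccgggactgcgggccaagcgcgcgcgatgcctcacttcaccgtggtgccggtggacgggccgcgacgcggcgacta

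The 4 windows differed in base composition. The G and C content was 70.7% for Wnk2, 57.0% for Wnk3, 80.7% for Slc12a2 and 74.0% for Slc12a4, against a median of 51.7% over 33469 promoters of the same length. The second Wnk3 entry (chrX:23634058-23634357, plus strand) had 35.7% and 1 CpG, so Wnk3 lay above or below the median depending on the entry. CpG dinucleotides numbered 19 in Wnk2, 12 in Wnk3, 52 in Slc12a2 and 31 in Slc12a4, against a median of 7. GC boxes numbered 1 in Wnk2, 0 in Wnk3, 3 in Slc12a2 and 5 in Slc12a4, and 33.1% of all promoters held at least 1. No window of the 9 genes held a CArG box, the serum response factor motif of smooth muscle genes, which 1.64% of all promoters held on either strand. These counts describe letters in a window and say nothing of factor binding.

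The counts of the 9 genes past the thresholds are given beside those of all genes, as a description. A call needed an adjusted p below 0.05 together with a log2 fold change above 1 or below −1. In P, 3 of the 9 were called, Wnk2 and Wnk3 lower and Slc12a2 higher, where 27.6% of the genes tested were called. By adjusted p alone, 4 were higher and 4 lower, where 77.9% of all genes passed. In RBPMS KD1, 1 of the 9 was called, Wnk2, beside 4.68% of all genes, and by adjusted p alone 2 were higher and 4 lower, beside 59.1%. In MBNL KD, 1 of the 9 was called, again Wnk2, now higher, beside 10.2% of all genes (its log2 fold change was 0.97, short of a call, with limma on the authors' quantile-normalised values), and by adjusted p alone 7 were higher and 2 lower, beside 67.5%. The median absolute log2 fold change of the 9 was 0.61 in P, 0.28 in RBPMS KD1 and 0.36 in MBNL KD, and 0.46, 0.23 and 0.31 over all genes tested. Since the genes were chosen with these values known, nothing is read from these counts.

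**Figure D3:**
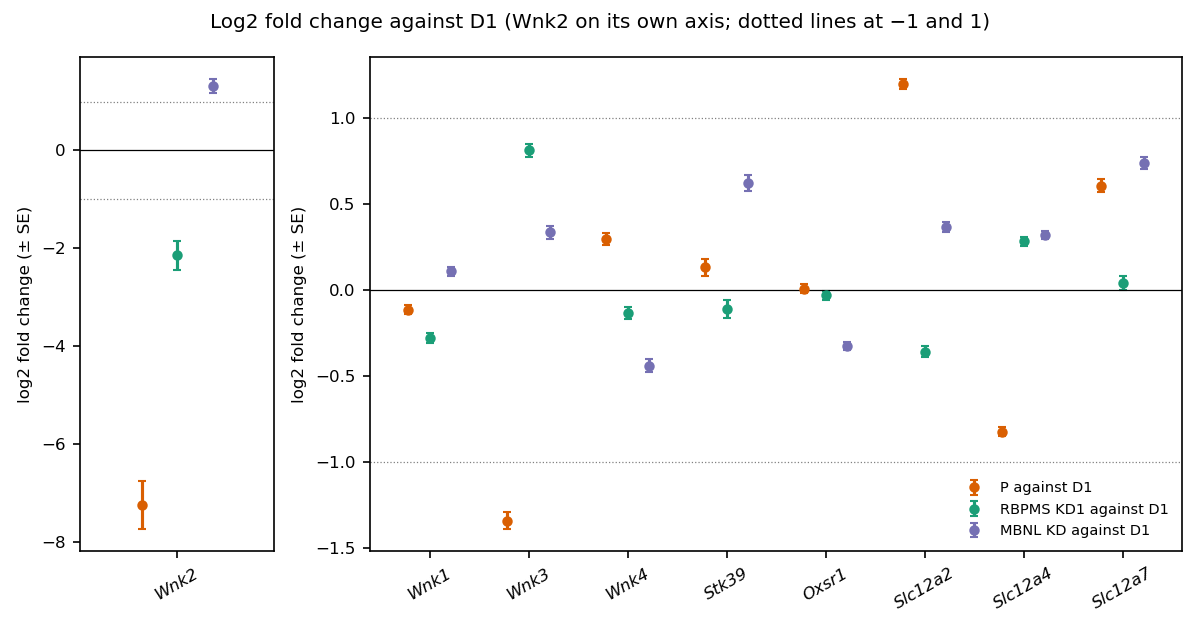
Log2 fold change against D1 from edgeR for the 9 genes (y axes, log2 scale, Wnk2 on an axis of its own), with dots for estimates, bars for ± SE and dotted lines at −1 and 1. Outside Wnk2, P values ran from −1.34 for Wnk3 to 1.20 for Slc12a2, and no knockdown value passed a dotted line.

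Rbpms mRNA was low in RBPMS KD1 and P but not equally, at 24.7% to 25.5% and 6.23% to 6.36% of D1. A direct comparison shows how far apart these groups were. Both comparisons with D1 use the same 3 D1 libraries, so they are not independent. RBPMS KD1 was above P for Wnk3 by 2.18 on the log2 scale and for Slc12a4 by 1.13, and the value for Slc12a2 was −1.53. These 3 of the 8 genes tested were called, where 29.1% of all genes were, and 7 passed the adjusted p, where 79.4% did. Wnk2 did not pass the low-count filter here, and the ratio of RBPMS KD1 to P over 76 and 2 counts was 40.6 (exact interval 10.8 to 341, counting error only). With counts halved, the ratio was 39.5 with an interval of 6.66 to 1601. All Wnk2 counts of P came from P replicate 3, so neither ratio can be formed without that library. The other genes differed less, from −0.54 for Slc12a7 to −0.016 for Oxsr1.

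The knockdowns were also compared with each other, without D1. Wnk2 was lower in RBPMS KD1 than in MBNL KD, with a log2 fold change of −3.45 (SE 0.23), and its low level in RBPMS KD1 was among the values known when the set was drawn up. It alone of the 9 was past both thresholds, beside 11.9% of all genes, and nothing is read from that. By adjusted p alone, 8 of the 9 passed, 3 higher and 5 lower in RBPMS KD1, where 69.5% of all genes did. Stk39 (−0.73), Slc12a2 (−0.72), Slc12a7 (−0.69) and Wnk1 (−0.38) were lower in RBPMS KD1, and Wnk3 (0.48), Wnk4 (0.31) and Oxsr1 (0.30) were higher. Slc12a4 was at −0.031, and did not pass.

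The wider pathway was followed with a list of 38 other genes of chloride transport and WNK regulation, of which 37 passed the low-count filter. Their p-values are from the same edgeR quasi-likelihood tests, adjusted over all genes tested. The list came from knowledge of the pathway, but with earlier results of these data known. Genes named below without a call were picked after their values were seen, so their p-values are a description and no test of them. In P, 15 were higher and 18 lower by adjusted p. In RBPMS KD1, 16 were higher and 11 lower, and in MBNL KD 14 were higher and 19 lower. The share of all genes that passed was 77.9%, 59.1% and 67.5% in these comparisons. With the fold threshold, 4 of the 37 were called in P, 1 in RBPMS KD1 and 3 in MBNL KD, beside 27.6%, 4.68% and 10.2% of all genes. The median log2 fold change of the list was −0.049 in P, 0.0091 in RBPMS KD1 and −0.17 in MBNL KD, against 0.020, 0.0043 and 0.0099 over all genes.

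Of the other cotransporters, Slc12a1, which encodes the kidney NKCC2, had at most 4 counts in any library and was not tested. Slc12a3, the thiazide-sensitive sodium-chloride cotransporter, was lower in P at 22.4 ± 5.77 scaled counts against 47.1 ± 3.84 in D1 (log2 fold change −1.07, SE 0.31, adjusted p = 0.00264). In MBNL KD Slc12a3 was higher (0.57, SE 0.24, adjusted p = 0.0354), and in RBPMS KD1 it did not pass (adjusted p = 0.471). Slc12a5, which encodes the neuronal exporter KCC2, was lower in P at 64.6 ± 3.47 against 213 ± 21.4 in D1 (−1.72, SE 0.17, adjusted p = 3.81e-11). It did not pass in RBPMS KD1 (adjusted p = 0.615) or MBNL KD (adjusted p = 0.77). Slc12a9 was higher in P (0.96, SE 0.060, adjusted p = 5.48e-16). Slc12a8 was higher in RBPMS KD1 (0.98, SE 0.063, adjusted p = 7.78e-14) and lower in MBNL KD (−0.72, SE 0.082, adjusted p = 5.65e-09).

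Among the partners of the kinases, genes of the CUL3 ubiquitin ligase that degrades WNKs were higher in MBNL KD, 4 of 4 by adjusted p, beside 33.8% of all genes. The changes were small, from 0.11 for Cul3 to 0.40 for Klhl2. Klhl2, a substrate adaptor of that ligase, had an SE of 0.038 there (adjusted p = 1.25e-10). Klhl3, the other adaptor, was at −0.94 in P (SE 0.071, adjusted p = 9.24e-14). Cab39 and Cab39l, which encode the MO25 scaffolds that activate SPAK and OSR1, were both higher in MBNL KD, by 0.46 and 0.53. In RBPMS KD1, Cab39 was lower (−0.22) and Cab39l higher (0.28). In the other comparisons the ligase genes were mixed, with 1 higher and 2 lower in P, beside 77.9% of all genes past the adjusted p in either direction, and 1 higher and 1 lower in RBPMS KD1, beside 59.1%. The WNK-binding pseudokinases (Nrbp1, Nrbp2) and the TSC22 proteins were mixed too, with 2 higher and 3 lower of 6 in MBNL KD, beside 67.5%. There Nrbp1 was at −0.90 (SE 0.025, adjusted p = 2.07e-23) and Tsc22d3 at 0.92 (SE 0.037, adjusted p = 2.72e-19). In this role 2 were higher and 3 lower in P, beside 77.9%, and 2 higher and 4 lower in RBPMS KD1, beside 59.1%. Of the upstream regulators Sgk1, Nedd4 and Nedd4l, 2 were higher and 0 lower in MBNL KD (beside 67.5%), 2 higher and 1 lower in P (77.9%), and 0 higher and 1 lower in RBPMS KD1 (59.1%). The Sgk1 libraries of MBNL KD overlapped those of D1. None of these genes reached a log2 fold change of 1.

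The volume-regulated anion channel is built from LRRC8 proteins, with Lrrc8a encoding the obligatory subunit. All 5 Lrrc8 genes were lower in MBNL KD by adjusted p, as were 33.7% of all genes. Lrrc8d was 399 ± 29.5 in MBNL KD against 1101 ± 63.1 in D1 (−1.45, SE 0.073, adjusted p = 6.41e-17), and was the only one past the fold threshold. Lrrc8a was at −0.72 (SE 0.031, adjusted p = 1.26e-18). In RBPMS KD1, Lrrc8b (−0.98) and Lrrc8d (−0.61) were lower, and the other 3 did not pass, where 59.1% of all genes passed. In P, Lrrc8b (0.55), Lrrc8d (0.92) and Lrrc8e (1.14) were higher, and Lrrc8a (−0.59) and Lrrc8c (−0.44) lower, where 77.9% of all genes passed.

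Among the other channels and exchangers, Clcn4, an endosomal chloride/proton exchanger, was higher in both knockdowns. It was 95.6 ± 18.5 in D1, 233 ± 35.4 in RBPMS KD1 (1.28, SE 0.16, adjusted p = 6.5e-08) and 308 ± 24.3 in MBNL KD (1.69, SE 0.14, adjusted p = 1.11e-11). In P it was lower than in D1, at 59.2 ± 9.32 (−0.69, SE 0.22, adjusted p = 0.00548). It was the pathway gene called in RBPMS KD1, and with limma on the authors' quantile-normalised values 0 pathway genes were called there. Ano6, a calcium-activated scramblase and channel, was lower in MBNL KD (−1.40, SE 0.025, adjusted p = 7.57e-28). Ano1, the calcium-activated chloride channel of smooth muscle, was at 0.94 in P (SE 0.030, adjusted p = 3.14e-24), just under the fold threshold. Slc4a3, a chloride/bicarbonate exchanger, was lower in P (−1.58, SE 0.066, adjusted p = 6.66e-21).

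**Figure D4:**
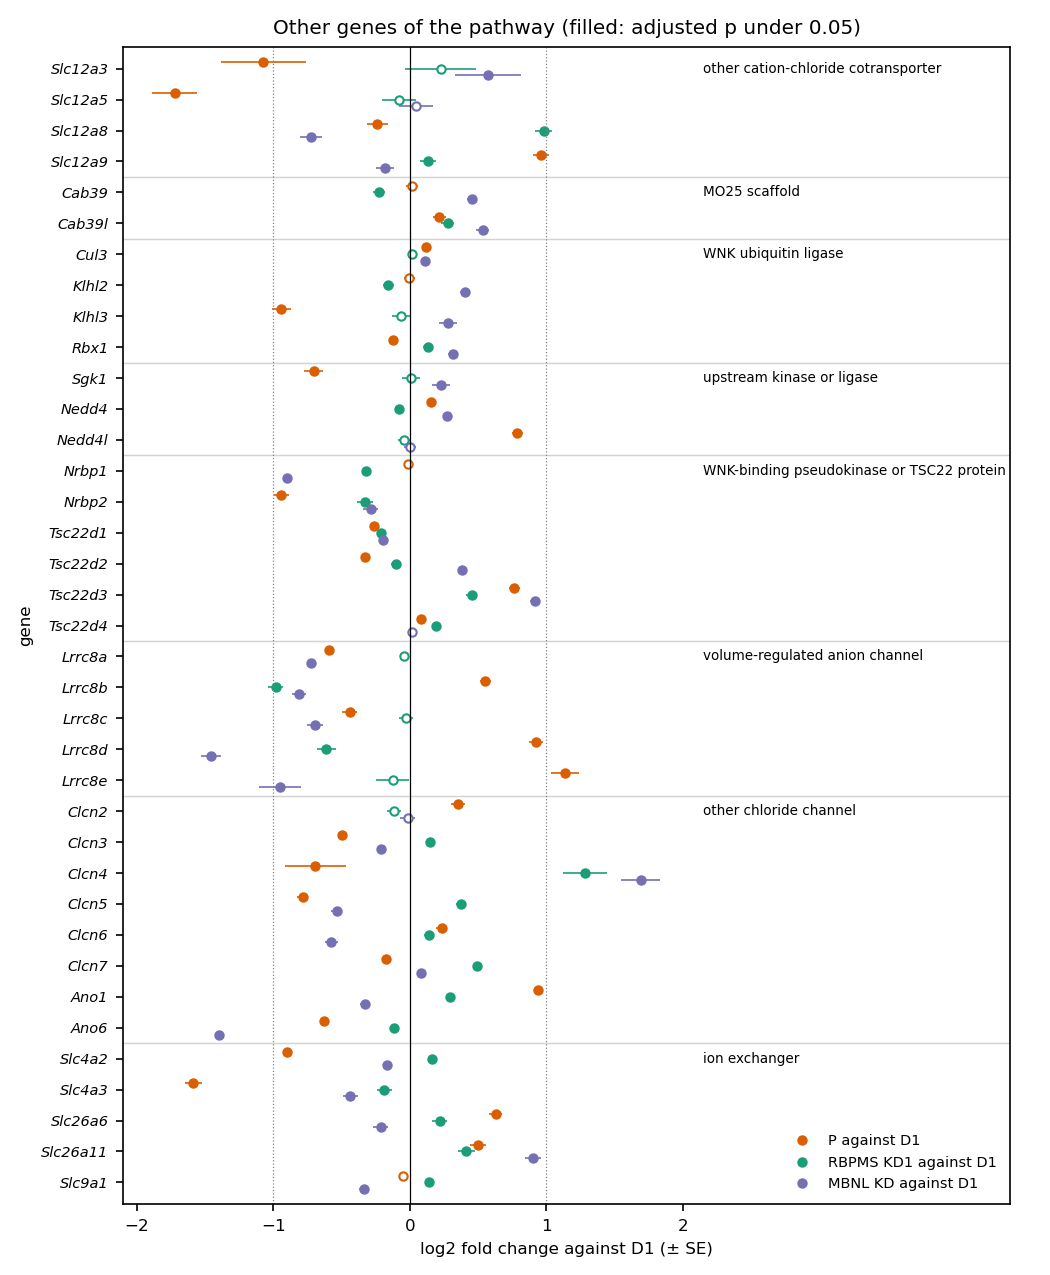
Log2 fold change against D1 from edgeR (x axis) for the 37 other pathway genes tested (y axis, grouped by role), with bars for ± SE, filled dots for an adjusted p under 0.05 and dotted lines at −1 and 1. All 5 Lrrc8 genes lay left of 0 in MBNL KD, and Clcn4 lay beyond 1 in both knockdowns.

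The genes whose pattern was most like that of Wnk2 were ranked by Pearson correlation of log2(CPM + 1) over the 12 libraries, among 12645 genes with a mean of at least 100 scaled counts. They were Cdk4 (r = 0.995), Cfap100 (0.991), Col5a2 (0.990), Rbsn (0.990) and Ranbp1 (0.990). This ranking rests on the offset, since Wnk2 is at or near 0 in several libraries. With 1 scaled count added in place of 1 CPM, an alternative chosen after the ranking was seen, the r of these 5 genes with Wnk2 was 0.880 to 0.900, their ranks were 974 to 1197, and 0 of them were among the 5 most alike. Cdk4, a cell cycle kinase, was 18768 in D1, 14494 in P, 15787 in RBPMS KD1 and 23644 in MBNL KD, a far narrower range than that of Wnk2. Among the 9, the pairs with the largest absolute r over the same 12 libraries were Wnk3 with Slc12a4 (0.97) and Wnk3 with Slc12a2 (−0.93). Other pairs were close, such as Stk39 with Oxsr1 (−0.90) and Wnk4 with Slc12a4 (−0.89). The libraries fall into 4 groups of 3, so these values describe group differences.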

How the data were processed

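The authors subsampled reads with seqtk, aligned them to mRatBN7.2 with STAR 2.7.11b and deposited raw counts per gene symbol from featureCounts. They also deposited a normalised signal, made with noisyR noise correction and quantile normalization, whose smallest value is 35. The library kit was directional, and the strand setting of the counting is not given in the sources used here. In the RefSeq table (GRCr8), Wnk1, Wnk3, Wnk4, Stk39, Oxsr1 and Slc12a4 overlap other genes, so reads there could be shared.

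Groups came from the sample labels. Each comparison used its 6 libraries in edgeR 4.0.16 (R 4.3.3): filterByExpr, TMM, quasi-likelihood F test and Benjamini-Hochberg adjustment over all genes tested. The SE is the absolute log2 fold change over the square root of F. Ratios of summed Wnk2 counts have exact 95% intervals. The members and lists were chosen with earlier results of these data known. All 9 members are described, with pathway genes called in a comparison with D1 or without a test, and the 5 genes most like Wnk2. A gene of the pathway list is not reported here and was left out of its counts. Other pathway genes were named after their values were seen. Alternatives were RLE factors, other low-count filters, DESeq2 1.42.0, limma 3.58.1 on the normalised signal, 1 fit of 12 libraries, a replicate block, an adjusted p under 0.01, no fold threshold, leaving out each library and, chosen after seeing the data, halved counts and another offset for the genes most like Wnk2.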

Additional observations from a re-analysis of the deposited data

How the results depend on the processing

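Of the members' values under the alternatives, 600 kept their call or moved by less than the spread, 12 moved by more, 1 lost its call and 0 called values changed sign. The call that was lost is that of Wnk2 in MBNL KD, at 0.97 with limma on the authors' quantile-normalised values, to which 35 had been added. With limma on those values, the genes called came to 209 in RBPMS KD1, 785 in MBNL KD and 1052 between the knockdowns, with 0 pathway genes (the call of Clcn4 was lost) in RBPMS KD1 and 0 members in MBNL KD. The share of calls that were higher went from 59.4% to 50.4% in P, from 65.4% to 50.2% in RBPMS KD1 and from 59.6% to 49.6% in MBNL KD. With at least 10 counts in every library, 2933 genes were called in P and 3154 between RBPMS KD1 and P, and 0 members in RBPMS KD1 or between the knockdowns, because Wnk2 was not tested. With no fold threshold, the genes called in P, RBPMS KD1, MBNL KD, RBPMS KD1 against P and RBPMS KD1 against MBNL KD were 13103, 9393, 10833, 13423 and 11202, of which 8, 6, 9, 7 and 8 were members and 33, 27, 33, 34 and 31 were pathway genes. Leaving out 1 library gave 1 to 2 pathway genes in RBPMS KD1, with 2 without D1 replicate 1 or 3 or RBPMS KD1 replicate 1 or 3. The deviations of same-numbered libraries had correlations of −0.021 to 0.058 over 18 pairs. This showed no pairing by number, but with 3 libraries per group it cannot exclude that such libraries were handled together. With a replicate block, 4593, 730, 1634, 4897 and 1915 genes were called in the same order of comparisons, and the members called were the same in number. Depth limits Wnk2 alone of the 9, since P held 2 of its counts in all.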
